A study of Homo sapiens with 24 samples.

Results

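The GCN2 line of HAP1 cells was compared with the parental line, PAR, over 3 treatment arms, to find transcript differences that stand whatever the treatment. Its members were the 3 arrays titled GCN2 and the 5 titled PAR, 8 of the 24 arrays in the series. For each gene symbol the brightest probe set on average represented the gene, and the treatment arm was a block in the fit. The other 16 arrays came from 4 further lines (HRI, PKR, PERK and S51A) and served only to place the differences.

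Transcripts were measured on Affymetrix arrays, with values on a log2 scale. HAP1 is a near-haploid human line that descends from the leukaemia line KBM-7. The GCN2 line is labelled as having lost GCN2, and PAR carries none of the changes. Of the other lines, HRI, PKR and PERK are each named for the loss of another kinase of the translation factor eIF2-alpha, and S51A for a change of the serine that these kinases phosphorylate. All lines were bought from 1 supplier, each kinase loss was represented by 1 line, and the submitters state that the mutations were sequenced. The GCN2 line had 1 array without drug, 1 with lomustine (200 µM for 2 h) and 1 of the treatment titled SA100. PAR had 2 arrays without drug, lettered A and B, 2 with lomustine, also A and B, and 1 of SA100. SA100 was read from the treatment text as sodium arsenite, NaAsO2 (100 µM for 2 h), although the agent field of those arrays names lomustine. The labels do not say whether repetitions were separate cultures, so p-values measure only the spread between these arrays. With 1 line, the loss of GCN2 and any other difference that arose in that line cannot be told apart.

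GCN2, encoded by EIF2AK4, is a kinase that senses uncharged transfer RNA when amino acids run short. It then phosphorylates eIF2-alpha, which slows translation in general while favouring translation of the transcription factor ATF4. ATF4 in turn induces genes of amino acid synthesis and transport, and the same eIF2-alpha serine is phosphorylated by HRI, PKR and PERK under other stresses.

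The labels were checked on the 300 genes that differed most between lines, by correlating each array's deviations from its arm mean with each line's profile, made from its untreated and lomustine arrays other than that one. The GCN2 arrays were closest to the GCN2 profile in all 3 arms, with r of 0.88 without drug, 0.88 with lomustine and 0.60 with SA100. For the untreated and lomustine GCN2 arrays, that profile was 1 other array. The genes were chosen for differing between the labelled lines, which favours agreement with the labels. The array labelled PKR SA100 went against its label, with r of 0.57 to the GCN2 profile and 0.15 to the PKR profile. The array labelled PKR SA100 enters none of the comparisons of GCN2 with PAR over 8 arrays. For the fits of arm and line over all lines, the main count of genes called is given with and without it. Values of single genes from those fits, deviations from arm means and the choice of chromosome stretches are given only with it. The PKR and PERK lines could not be told apart by this check: untreated PERK (0.86) and PERK SA100 (0.64) were closest to PKR, and PKR lomustine (0.83) to PERK. Untreated PAR array A was about as close to HRI (0.22) as to PAR (0.15). In PAR lomustine A, 3.38% of probe sets were off the median of the remaining arrays by over 1 log2 unit. That share was 0.83% to 1.64% on the GCN2 arrays and 8.72% on S51A lomustine B. The blood markers of the list chosen for this leukaemia-derived line were mostly low. Of the 13 tested, GATA2, a transcription factor of blood progenitors, had a mean of 4.87 in GCN2 and 4.36 in PAR. LYL1 had 4.33 in GCN2 and 4.48 in PAR, and GATA1 had 3.83 in GCN2 and 3.68 in PAR. The median of all values on the arrays was 2.42, and MPO and CD3E lay below it in both lines. Values under 2.42 were taken as not told from background. Where a gene's arrays fall below it, the difference is also given between means with such values set to 2.42, as a lower bound in size. These are plain means that leave arm out, so the bound is for their difference and not for the fitted one.

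The transcript of the lost kinase was present in the GCN2 line. EIF2AK4 read 5.84, 5.89 and 5.76 in GCN2 cells (no drug, lomustine, SA100), against 6.10 and 6.40 (no drug), 5.76 and 6.32 (lomustine) and 5.91 (SA100) in PAR cells. The GCN2 values lay at the low end of the PAR values and overlapped them in the lomustine arm. The log2 difference of GCN2 minus PAR was -0.24 (SE 0.17, 95% interval -0.63 to 0.15, limma adjusted p = 0.997). Against the other 4 lines it was -0.33 (adjusted p = 0.707), and -0.40 (adjusted p = 0.0205) after a second quantile normalization, the 1 alternative in which it passed. Of the 16 arrays of those lines, only S51A lomustine B (5.63) lay below the GCN2 arrays. Since a mutation can leave a transcript in place, this level does not check the loss.

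The partners and substrate of the kinase were near their PAR levels. GCN1, which binds GCN2 on ribosomes, differed by -0.02 log2 units (SE 0.14). IMPACT, an inhibitor of GCN2 that competes for GCN1, differed by 0.32 (SE 0.35). EIF2S1, which encodes eIF2-alpha itself, differed by 0.12 (SE 0.15). The sister kinases differed by 0.09 for HRI (EIF2AK1, SE 0.15), 0.15 for PKR (EIF2AK2, SE 0.16) and 0.19 for PERK (EIF2AK3, SE 0.19). None of these genes passed the test (limma adjusted p = 0.997 for each). Of the 17 pathway genes tested, 0 passed, with a median log2 difference of 0.00 and a range from -0.24 to 0.40. The top of that range was PPP1R15B, the constitutive partner of the eIF2-alpha phosphatase, at 0.40 (SE 0.22).

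Over all genes, 6 of 17526 (0.0342%) differed between the GCN2 line and PAR at an adjusted p under 0.05 (limma on 8 arrays, arm as a block). Of these, 5 (0.0285%) were higher in GCN2 (TCEAL9, HOOK1, PXDN, MAN1A1 and GSTM3) and 1 (0.00571%) was lower (ZNF440). All 6 differed by at least 2-fold, and for all 6 the GCN2 array lay beyond every PAR array of its arm in each of the 3 arms. At an unadjusted p under 0.05 there were 782 genes (4.46%), no more than that threshold alone would give. Leaving out 1 array at a time left between 1 and 8 genes. TCEAL9 passed each time, while the other 5 passed only where the array left out was PAR lomustine A or B. The count was 1 without PAR no drug A, PAR no drug B, GCN2 no drug or GCN2 lomustine, and 2 without PAR SA100 or GCN2 SA100.

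TCEAL9, a small nuclear protein of the transcription elongation factor A-like family on the X chromosome, showed the largest difference. Probe set 17105706 read 7.01, 6.61 and 7.72 in GCN2 cells (no drug, lomustine, SA100), against 2.59 and 2.33 (no drug), 1.99 and 2.29 (lomustine) and 2.35 (SA100) in PAR cells. The lines did not overlap, and 4 of the 5 PAR arrays lay under 2.42. The log2 difference was 4.74 (SE 0.19, 95% interval 4.31 to 5.18, adjusted p = 7.06e-05). Between plain means, with PAR values under 2.42 set to that level, the difference was 4.66, so TCEAL9 was at least 25.3-fold higher in GCN2. Outside the GCN2 line, the array labelled PKR SA100 read 7.35. The other PKR arrays read 2.00 and 2.35, and the remaining arrays of HRI, PERK and S51A read 1.61 to 3.06. For the other genes that passed, the array labelled PKR SA100 lay outside the GCN2 range. It read 2.72 for HOOK1, 2.92 for PXDN, 5.90 for MAN1A1, 3.61 for GSTM3 and 3.63 for ZNF440.

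PXDN encodes peroxidasin, a secreted peroxidase that crosslinks collagen IV. Its probe set read 3.68, 3.96 and 3.91 in GCN2 cells, against 2.29 and 2.39 (no drug), 2.28 and 2.32 (lomustine) and 2.26 (SA100) in PAR cells. All 5 PAR arrays were under 2.42 and all 3 GCN2 arrays above it, and the fitted log2 difference was 1.54 (SE 0.13, adjusted p = 0.0144). Against a level of 2.42, PXDN was at least 2.70-fold higher in GCN2. The PERK arrays were also high, at 3.25 (no drug), 3.26 (lomustine) and 4.03 (SA100), and the last of these exceeded all GCN2 arrays.

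HOOK1, an adaptor that links endosomal cargo to microtubule motors, read 4.65, 4.20 and 4.10 in GCN2 cells, against 2.79 and 3.18 (no drug), 2.80 and 2.95 (lomustine) and 2.16 (SA100) in PAR cells. The lowest GCN2 array was above the highest PAR array, and also above the highest array of the other lines, 3.68 in PERK with SA100. The fitted log2 difference was 1.61 (SE 0.16, adjusted p = 0.0346). Between plain means, with the 1 PAR array under 2.42 set to it, the difference was 1.49. GSTM3, a mu-class glutathione S-transferase that detoxifies electrophiles, read 3.98, 4.38 and 4.22 in GCN2 cells, against 2.87 and 2.81 (no drug), 2.98 and 2.83 (lomustine) and 3.03 (SA100) in PAR cells. No array of any other line reached the GCN2 values, the nearest being 3.75. All S51A arrays (3.16 to 3.75) and HRI arrays (3.32 to 3.75) also lay above every PAR array. The log2 difference was 1.28 (SE 0.13, adjusted p = 0.0346).

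MAN1A1, a Golgi mannosidase that trims N-glycans, read 6.69, 6.51 and 6.23 in GCN2 cells, against 5.38 and 5.48 (no drug), 4.70 and 5.17 (lomustine) and 4.54 (SA100) in PAR cells. The lines did not overlap, but HRI with SA100 reached 6.29, within the GCN2 range. The log2 difference was 1.49 (SE 0.16, adjusted p = 0.0358). ZNF440, a zinc finger gene on chromosome 19, was the only one of the 6 that was lower. It read 3.02, 2.67 and 2.93 in GCN2 cells, against 4.36 and 4.35 (no drug), 3.90 and 4.48 (lomustine) and 4.39 (SA100) in PAR cells. GCN2 was below PAR on every array, and the log2 difference was -1.44 (SE 0.16, adjusted p = 0.0388). HRI arrays ran from 2.45 to 3.77 and overlapped GCN2, while S51A arrays ran from 4.40 to 5.98. PKR arrays ran from 3.63 to 3.67, and like the HRI arrays they lay below every PAR array. PERK read 3.19 without drug, 3.13 with lomustine and 4.68 with SA100.

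**Figure D1:**
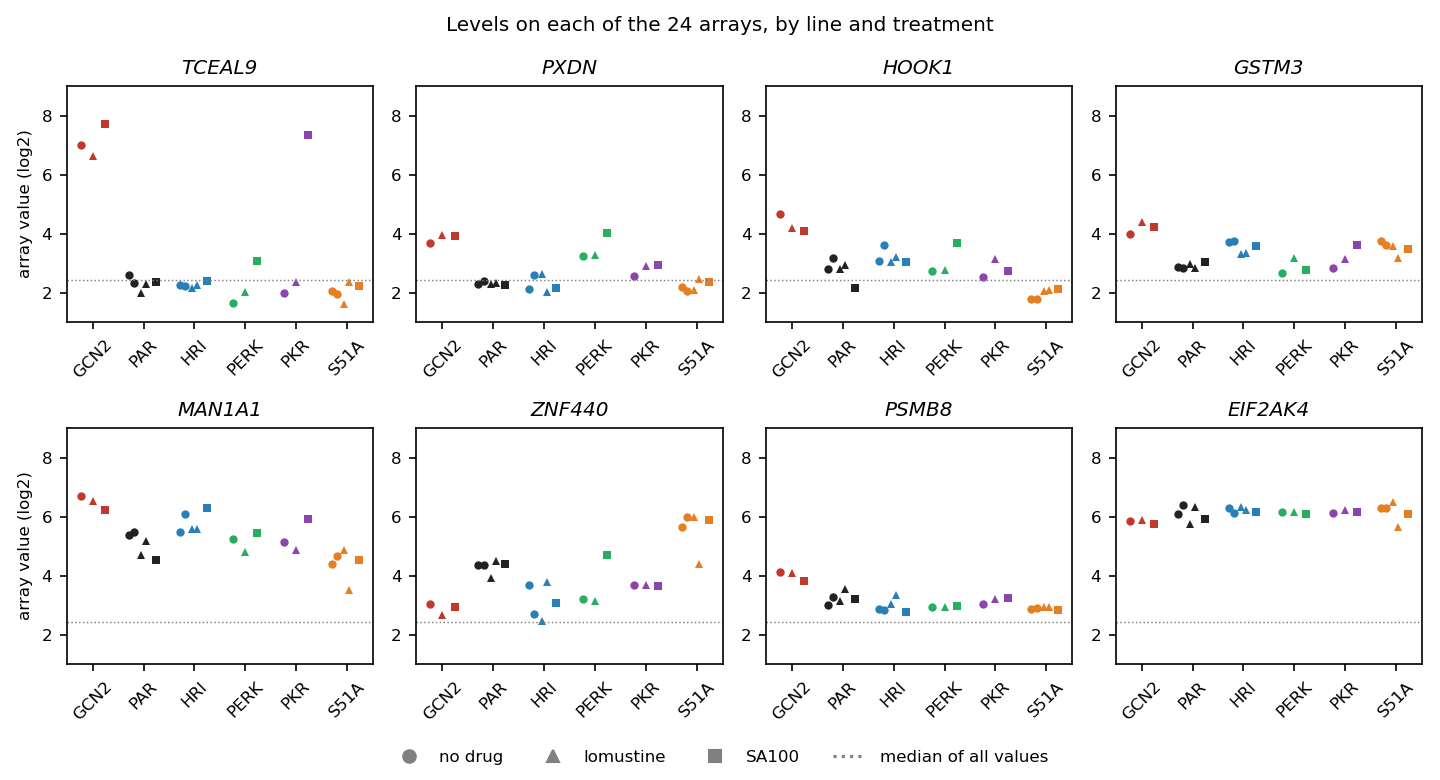
Array values (log2) of the 6 genes that differed between GCN2 and PAR, of PSMB8 and of EIF2AK4, with lines along the x axis, 1 point for each array and the treatment given by the marker. TCEAL9 was high in GCN2 and on the array labelled PKR SA100, PXDN was also raised in PERK, and EIF2AK4 read 5.76 to 5.89 in GCN2 and 5.76 to 6.40 in PAR.

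The start regions of the 4 genes that passed both this fit and the fit over 24 arrays are shown because they differ widely in CpG content, the substrate of DNA methylation. Each runs from 250 bases before to 50 after the gene's start, from RefSeq on GRCh38.p14, 5′ to 3′ along the gene, with each CG in capitals.
TCEAL9 (chrX:103356256-103356555, + strand): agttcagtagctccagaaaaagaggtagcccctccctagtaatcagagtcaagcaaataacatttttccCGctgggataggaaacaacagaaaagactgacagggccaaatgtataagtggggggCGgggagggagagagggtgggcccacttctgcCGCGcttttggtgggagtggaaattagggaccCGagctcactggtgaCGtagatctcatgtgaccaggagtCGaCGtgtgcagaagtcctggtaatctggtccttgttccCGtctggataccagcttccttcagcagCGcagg
PXDN (chr2:1744466-1744765, - strand): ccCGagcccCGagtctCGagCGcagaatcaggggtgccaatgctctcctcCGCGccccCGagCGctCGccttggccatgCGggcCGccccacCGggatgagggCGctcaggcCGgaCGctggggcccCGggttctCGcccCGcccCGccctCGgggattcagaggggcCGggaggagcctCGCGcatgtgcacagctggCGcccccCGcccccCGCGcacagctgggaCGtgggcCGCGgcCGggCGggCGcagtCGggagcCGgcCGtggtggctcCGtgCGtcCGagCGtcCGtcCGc
HOOK1 (chr1:59814699-59814998, + strand): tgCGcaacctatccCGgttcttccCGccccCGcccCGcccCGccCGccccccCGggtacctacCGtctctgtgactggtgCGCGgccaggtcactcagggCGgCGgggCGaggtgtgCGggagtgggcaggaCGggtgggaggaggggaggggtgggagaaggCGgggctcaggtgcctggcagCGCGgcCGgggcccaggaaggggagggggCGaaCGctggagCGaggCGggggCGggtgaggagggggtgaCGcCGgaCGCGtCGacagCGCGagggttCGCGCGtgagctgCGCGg
GSTM3 (chr1:109740989-109741288, - strand): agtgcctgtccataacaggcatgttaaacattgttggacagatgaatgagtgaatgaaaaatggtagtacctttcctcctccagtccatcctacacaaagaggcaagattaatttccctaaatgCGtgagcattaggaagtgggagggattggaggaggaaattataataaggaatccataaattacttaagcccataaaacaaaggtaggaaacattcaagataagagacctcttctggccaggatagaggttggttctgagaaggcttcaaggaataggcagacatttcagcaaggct
The windows held 10 CpG for TCEAL9, 42 for PXDN, 37 for HOOK1 and 1 for GSTM3. MAN1A1 and ZNF440 had 47 and 18. The median was 27.5 over these 6 genes, 24 over the 12832 of 17526 tested genes that had a window, and 14 over all 27305 windows. Tested genes without a window were not covered. A motif bound by ATF4 with C/EBP proteins, searched as TGATGCAA on both strands, was in 0 of the 6 windows, in 0.59% of those of the tested genes and in 0.92% of all windows. Methylation and binding were not measured.

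A fit over all 24 arrays with terms for arm and line asked the same question with the spread of all lines. It called 12 of 17526 genes (0.0685%) in GCN2 minus PAR, 10 higher and 2 lower, and 4 of them were among the 6 above (TCEAL9, PXDN, HOOK1 and GSTM3). MAN1A1 narrowly missed (log2 difference 1.40, limma adjusted p = 0.0506), and ZNF440 did not pass (-1.47, adjusted p = 0.237). The 8 genes it added were EGFR, PSMB8, LINC00458, TMEM35A, CEP15 and BEX3, which were higher, and EPHA3 and FASTKD2, which were lower. All but PSMB8, a member of a list, were named after their values were seen. CEP15 passed the filter only through the GCN2 arrays, since all arrays of the other lines were under 2.42, so the filter admitted it through the group where it is high and its call supports nothing here. Without the array labelled PKR SA100 it called 15.

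Among these, EPHA3 had the widest gap. This ephrin receptor gene read 2.63, 2.46 and 4.35 in GCN2 cells (no drug, lomustine, SA100), against 5.72 and 5.36 (no drug), 5.50 and 4.99 (lomustine) and 5.19 (SA100) in PAR cells. The lines did not overlap, but the GCN2 SA100 array lay closer to PAR than to the other GCN2 arrays. The difference over 8 arrays was -2.30 (SE 0.35, adjusted p = 0.276) and over 24 arrays -2.27 (adjusted p = 0.00198). EPHA3 was also low in S51A (1.83 to 2.86) and PERK (2.46 to 2.96) and high in HRI (5.43 to 6.46). FASTKD2, a mitochondrial RNA-binding protein, read 2.17, 2.11 and 1.60 in GCN2 cells, against 4.69 and 4.24 (no drug), 3.08 and 3.95 (lomustine) and 3.74 (SA100) in PAR cells. The fitted difference over 24 arrays was -1.94 (adjusted p = 0.0210). All 3 GCN2 arrays were under 2.42, and against that level FASTKD2 was at least 2.87-fold lower in GCN2. The HRI arrays were equally low, at 1.65 to 2.02.

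To see which differences lie in the GCN2 line rather than in PAR, GCN2 was set against the mean of the other 4 lines. This fit called 27 of 17526 genes (0.154%), 13 higher (0.0742%) and 14 lower (0.0799%), and 29 without the array labelled PKR SA100. Without S51A lomustine B it called 78, and after a second quantile normalization 71. It called 5 of the 6 genes above, all but ZNF440 (-1.16, adjusted p = 0.170). Both comparisons share the GCN2 arrays, so the second adds no new GCN2 measurement. The mean of 4 lines can be moved by 1 of them. Leaving out S51A lost 16 of the 27, leaving out HRI lost 5, PERK 1 and PKR 0. ZNF729, for example, had a mean of 1.62 in GCN2, against 7.36 in S51A and 1.65 to 1.80 in HRI, PERK and PKR.

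With each line left out in turn, 9 of the 27 genes passed every time, 8 higher and 1 lower. TCEAL9, HOOK1, PXDN and GSTM3 were 4 of them, with log2 differences of 4.43, 1.57, 1.14 and 0.91 from the other 4 lines. The others were EGFR, PSMB8, LINC00458 and ASS1, which were higher, and PLCB1, which was lower. Apart from PSMB8 these were named after their values were seen.

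EGFR, the receptor of epidermal growth factor, read 3.23, 3.59 and 3.43 in GCN2 cells, against 2.65 and 2.67 (no drug), 2.58 and 2.48 (lomustine) and 2.55 (SA100) in PAR cells. No array of the 4 further lines exceeded 2.53, and GCN2 minus the other 4 lines was 1.05 (SE 0.10, adjusted p = 1.66e-05). Against PAR over 8 arrays it was 0.83 (SE 0.14, adjusted p = 0.359). PSMB8, a catalytic subunit of the immunoproteasome, read 4.12, 4.08 and 3.82 in GCN2 cells, against 2.99 and 3.28 (no drug), 3.12 and 3.55 (lomustine) and 3.20 (SA100) in PAR cells. The lines did not overlap, and PSMB8 differed from the other 4 lines by 1.02 (SE 0.11, adjusted p = 3.68e-05). Its 7 further probe sets on the array, identical to each other, had means of 3.92 in GCN2 and 3.22 in PAR.

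ASS1, which makes argininosuccinate in arginine synthesis, read 6.81, 6.92 and 6.38 in GCN2 cells, against 6.32 and 6.32 (no drug), 5.53 and 6.10 (lomustine) and 6.50 (SA100) in PAR cells. GCN2 was above PAR without drug and with lomustine and below it with SA100. ASS1 differed from the other 4 lines by 1.12 (SE 0.18, adjusted p = 0.00504) and from PAR by 0.55 (SE 0.23, adjusted p = 0.997). PLCB1, a phospholipase C that acts downstream of G proteins, read 2.85, 2.64 and 2.74 in GCN2 cells, against 4.38 and 3.98 (no drug), 3.02 and 3.69 (lomustine) and 3.68 (SA100) in PAR cells. GCN2 was below every array of all other lines, and the difference was -1.69 from the other 4 lines (SE 0.26, adjusted p = 0.00201) and -1.0 from PAR (SE 0.21, adjusted p = 0.757).

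A wider view came from genes whose GCN2 arrays lay wholly to 1 side of PAR, without regard to the test. All 3 GCN2 arrays were above all 5 PAR arrays for 321 genes (1.83% of 17526) and below them for 171 (0.976%). With so few arrays, some genes separate in this way by the order of the arrays alone. That share was not computed, so these counts do not by themselves show differences of the line. Of these, 12 were at least 2-fold higher (0.0685%) and 11 at least 2-fold lower (0.0628%), 23 in all, and they include the 6 genes that passed. The others did not pass. EPHA3 varied more among the GCN2 arrays (2.46 to 4.35) than among the PAR arrays (4.99 to 5.72). PLAAT5, a phospholipid-modifying enzyme, read 2.17, 2.45 and 2.31 in GCN2 cells, against 7.02 and 3.92 (no drug), 3.37 and 3.32 (lomustine) and 6.44 (SA100) in PAR cells. All PAR arrays were higher than GCN2 but they spanned more than 3 log2 units. The fitted difference was -2.65 (SE 0.74, adjusted p = 0.997). Between plain means, with the 2 GCN2 arrays under 2.42 set to it, the difference was -2.38. KBTBD7, a substrate adaptor of a ubiquitin ligase, and PTPN3, a tyrosine phosphatase, met the same criterion, with differences of -1.46 (SE 0.31) and -1.33 (SE 0.28). With values under 2.42 set to it, KBTBD7 (-0.84), MIR4660 (-0.80), ZNF772 (-0.60) and LINC00458 (0.92) differed by under 2-fold. SPAST, a microtubule-severing enzyme, lay on the other side, with a difference of 1.09 (SE 0.31). Small RNAs were among them: SNORD114-1, a snoRNA of the imprinted cluster on chromosome 14, differed by -1.83 (SE 0.27, adjusted p = 0.254), and the vault RNA VTRNA1-3 by 1.64 (SE 0.39, adjusted p = 0.979).

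**Figure D2:**
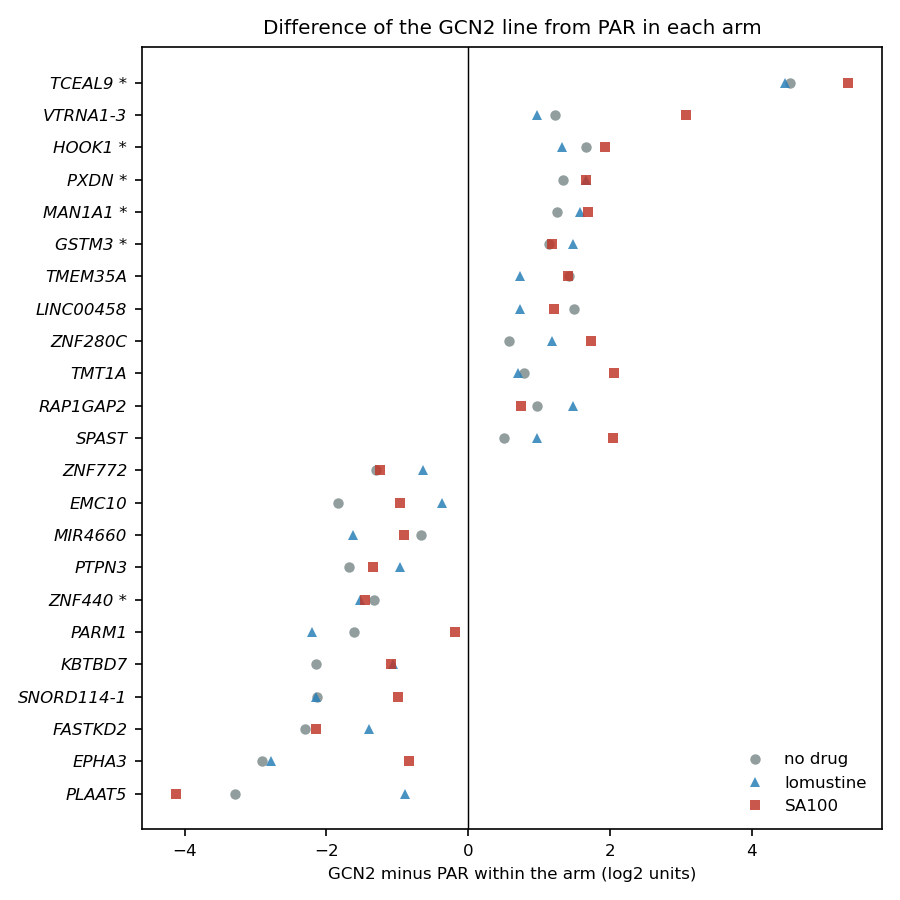
GCN2 minus PAR within each arm (x axis, log2 units, 1 point per arm) for the 23 genes, down the page, whose 3 GCN2 arrays lay on 1 side of all 5 PAR arrays with a difference of at least 2-fold, with asterisks on the 6 that passed the test over 8 arrays. TCEAL9 lay between 4.47 and 5.37 and ZNF440 between -1.52 and -1.33, while EPHA3 ran from -2.91 to -0.84.

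Whether the differences held under each treatment was asked with a fit of 1 mean for each group of line and arm. Within the no drug arm 1 gene passed (0.00571%), within lomustine 1 (0.00571%) and within SA100 1 (0.00571%), and each time it was TCEAL9, with log2 differences of 4.55, 4.47 and 5.37. For HOOK1 the difference was 1.67 without drug, 1.32 with lomustine and 1.93 with SA100. PXDN differed by 1.34, 1.66 and 1.66 over the same arms, GSTM3 by 1.14, 1.48 and 1.19, and MAN1A1 by 1.26, 1.58 and 1.69. ZNF440 differed by -1.33, -1.52 and -1.46. A moderated F test for unequal differences between arms called 0 of 17526 genes (0%; limma, 96 at an unadjusted p under 0.05). With 1 GCN2 array in each arm, this does not show that all differences were equal. The smallest p belonged to the sodium channel gene SCN9A, chosen for it. SCN9A read 2.16, 2.56 and 4.10 in GCN2 cells, against 2.77 and 3.52 (no drug), 3.62 and 3.65 (lomustine) and 2.24 (SA100) in PAR cells.

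The 7747 genes with a mean of at least 4 were then placed in RefSeq gene order and read in windows of 25 genes. A stretch was kept where at least 3 neighbouring windows had medians over 0.1 log2 units from 0, to 1 side, both in GCN2 minus PAR and in GCN2 minus the other 4 lines. There were 4 such stretches, 1 each on chromosomes 3 and 7 and 2 on the X chromosome. They were chosen by these values, on the same arrays. Their medians, shares of genes and gaps between GCN2 and PAR arrays are therefore a description with no test. The ends of the stretches are known only to the width of a window. Outside them, over 7152 genes, the median difference of GCN2 minus PAR was 0.03 and 57.6% of genes were above 0.

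The stretch on chromosome 3 ran from EPHA3 to RPL35A, the last gene placed there, and held 226 genes. Their median log2 difference was 0.29, with 210 genes (92.9%) higher in GCN2, against 0.03 and 61.0% over the 200 genes before it. Deviations from the arm mean were centred on each array's median over all placed genes. Across the stretch the GCN2 arrays then had median deviations of 0.15 to 0.20, against -0.13 to -0.02 on the PAR arrays, and the 2 did not overlap. The highest of the other lines was HRI, with a range from -0.07 to 0.13. All 3 GCN2 arrays were above all 5 PAR arrays for 33 of the 226 genes (14.6%), beside 1.17% of the genes outside the stretches. The stretch was chosen on the same arrays, so a higher share inside it follows in part from that choice. Among the larger members, SHOX2, a homeobox factor, differed by 0.73 (SE 0.21), CIP2A, an inhibitor of the phosphatase PP2A, by 0.66 (SE 0.22) and MCCC1, a subunit of the carboxylase of leucine breakdown, by 0.59 (SE 0.18). None of the 226 passed the test, and EPHA3 at the first place went the other way.

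The stretch on chromosome 7 ran from YWHAG to DYNC2I1, also the last gene placed, and held 194 genes with a median of 0.22. In it 174 genes (89.7%) were higher in GCN2, against 61.3% of the 150 genes before it. The GCN2 arrays had medians of 0.15 to 0.18 and the PAR arrays of -0.05 to 0.01, and no array of the other lines was above 0. The arm mean includes GCN2, so a high GCN2 by itself moves the other lines below 0. BAIAP2L1, which couples membranes to actin, differed by 0.87 (SE 0.16, adjusted p = 0.502) and GSTK1, a glutathione S-transferase, by 0.63 (SE 0.16, adjusted p = 0.997). LAMTOR4, a subunit of the Ragulator complex that anchors mTOR complex 1 at lysosomes, also lay here. It read 4.96, 4.79 and 4.58 in GCN2 cells, against 4.43 and 4.49 (no drug), 4.37 and 4.40 (lomustine) and 4.37 (SA100) in PAR cells. It differed by 0.39 (SE 0.12, adjusted p = 0.997).

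**Figure D3:**
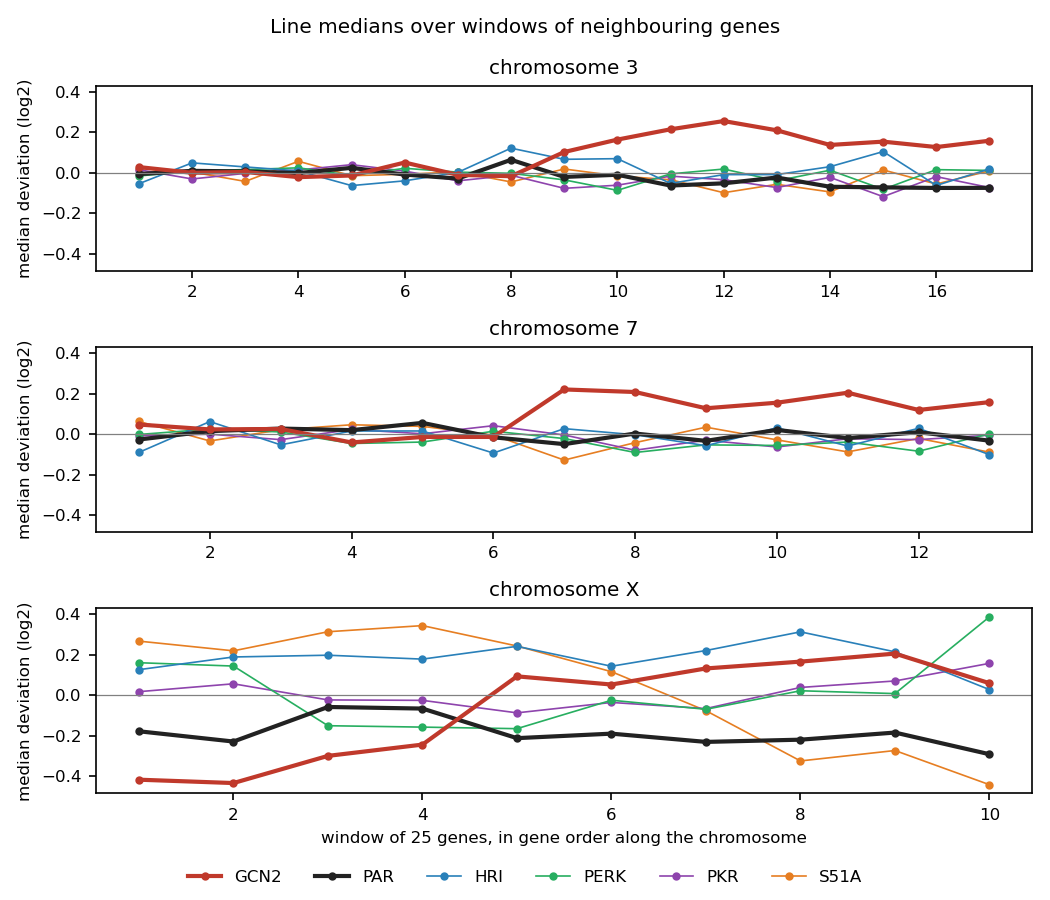
Median deviation from the arm mean (y axis, log2 units) of each line over consecutive windows of 25 genes in gene order (x axis) on chromosomes 3, 7 and X. The GCN2 line left the other lines over the later windows of chromosomes 3 and 7. On the X chromosome the lines spread more widely, though some of them ran close together over single windows or several.

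On the X chromosome the lines differed from one another more widely. The stretch from PLCXD1 to TSR2 held 100 genes with a median GCN2 minus PAR of -0.18, and 20.0% of its genes were higher in GCN2. The GCN2 arrays had medians of -0.37 to -0.33 and the PAR arrays of -0.24 to -0.06. S51A stood at the other end, from 0.27 to 0.35. EBP, an isomerase of cholesterol synthesis, lay in this stretch and differed by -0.35 (SE 0.14, adjusted p = 0.997). The stretch from DIAPH2 to INTS6L held 75 genes with a median of 0.43, and 97.3% of them were higher in GCN2. The 90 genes of the X chromosome outside both stretches had a median of 0.34, and 84.4% of them were higher. Within the stretch from DIAPH2 to INTS6L, the GCN2 arrays had medians of 0.15 to 0.23 and the PAR arrays of -0.34 to -0.11. HRI reached 0.19 to 0.36 in that stretch. HRI, PERK and PKR were also above every PAR array there, while S51A (-0.32 to -0.12) was as low as PAR. HPRT1, the purine salvage enzyme, differed by 0.82 (SE 0.31) and SMARCA1, a chromatin remodelling ATPase, by 0.73 (SE 0.15, adjusted p = 0.778).

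TCEAL9 lies between BEX2 and BEX3 among the genes tested, inside the later X stretch, and its own level over all arrays was too low to be placed. Its neighbours did not move as it did. BEX3, of the related brain-expressed X-linked family, read 4.96, 4.91 and 4.75 in GCN2 cells, against 4.21 and 4.16 (no drug), 3.90 and 4.27 (lomustine) and 4.11 (SA100) in PAR cells. The lines did not overlap and the difference was 0.76 (SE 0.14, adjusted p = 0.502). BEX4 differed by 0.66 (SE 0.19), and TMEM35A, a chaperone of nicotinic receptors, by 1.17 (SE 0.25). BEX2 differed by 0.01 (SE 0.13), TCEAL2 by 0.12 (SE 0.15), TCEAL4 by 0.08 (SE 0.14), TCEAL5 by 0.17 (SE 0.15) and TCEAL8 by -0.12 (SE 0.21). BEX2, TCEAL2 and TCEAL8 were near 2.42 in both lines.

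**Figure D4:**
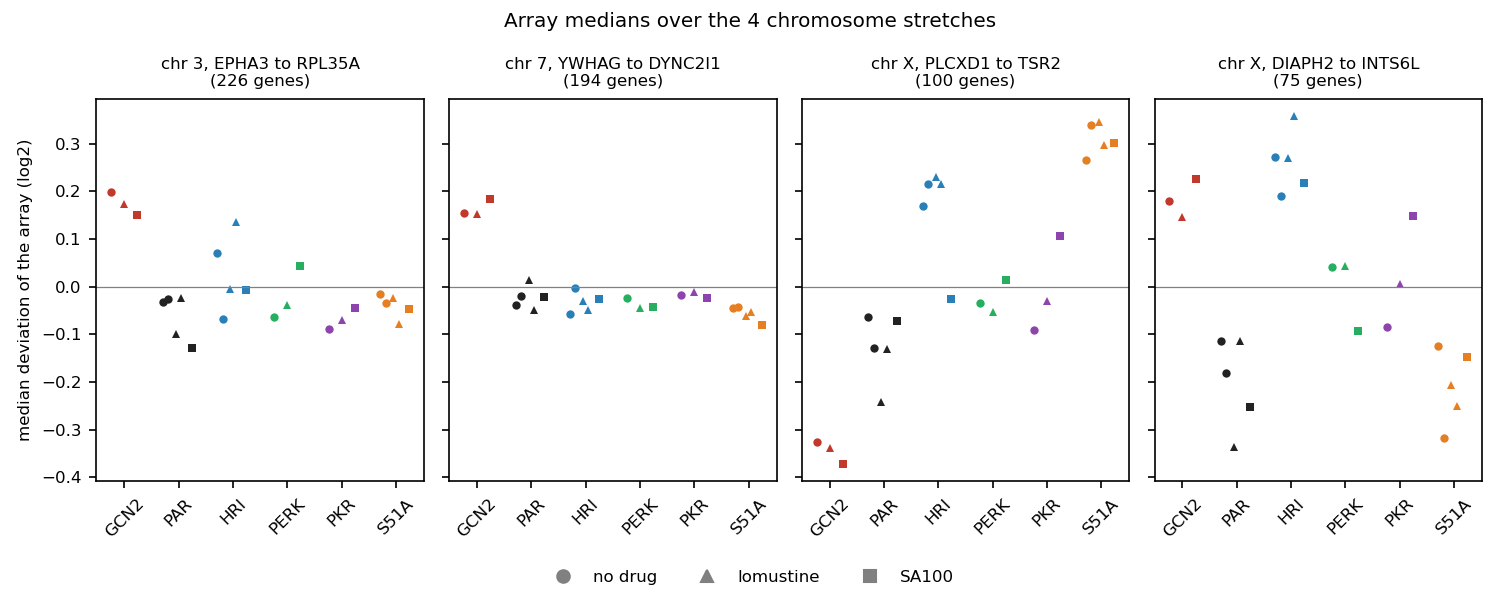
Median deviation from the arm mean (y axis, log2 units) of each array over the genes of the 4 stretches, with lines along the x axis and the treatment given by the marker. The 3 GCN2 arrays lay above all other arrays on chromosomes 3 and 7 and below them on the first X stretch, while on the second X stretch HRI arrays were as high.

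The 26 gene lists covered the pathways that GCN2 feeds, stress responses, growth, and markers of other cell types. Of their 425 distinct genes tested, 0 passed in GCN2 against PAR, beside 0.0342% of all genes. At an unadjusted p under 0.05 there were 21 (4.94%), beside 4.46% of all genes. The medians of the lists lay between -0.14 and 0.09 log2 units, beside 0.01 over all genes tested. Against the other 4 lines, PSMB8 was the only member called.

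Of the 27 targets of ATF4 and of its partner CHOP that were tested, 0 passed. Their median difference from PAR was -0.03 and the range -0.37 to 0.64. From the other 4 lines their median was 0.16, beside 0.02 over all genes, and 0 passed. SLC7A11, the cystine transporter, marked the top of the range. It read 7.49, 7.79 and 7.93 in GCN2 cells, against 6.73 and 7.60 (no drug), 7.33 and 7.58 (lomustine) and 6.45 (SA100) in PAR cells. The lines overlapped without drug, and the difference was 0.64 (SE 0.27, adjusted p = 0.997). ASNS, asparagine synthetase, differed by 0.29 (SE 0.21), and CHAC1, which degrades glutathione, by 0.49 (SE 0.28). CHAC1 itself responded to the treatments, with 5.33, 8.0 and 9.23 in GCN2 cells, against 5.08 and 5.23 (no drug), 6.89 and 8.17 (lomustine) and 8.31 (SA100) in PAR cells. The 23 genes of amino acid synthesis and transport had a median of -0.01, the 19 aminoacyl-tRNA synthetases 0.01 and the 23 genes of amino acid sensing by mTOR complex 1 0.03. SLC7A3, a carrier of cationic amino acids, differed by 0.64 (SE 0.23). ATF4 differed by 0.06 (SE 0.13).

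EGR1, an immediate-early transcription factor whose mRNA the series' title concerns, differed by 0.14 log2 units (SE 0.26). It read 4.51, 8.04 and 10.02 in GCN2 cells, against 4.25 and 4.75 (no drug), 7.87 and 8.69 (lomustine) and 9.18 (SA100) in PAR cells. The lines overlapped in 2 arms and the level followed the treatment. The 30 immediate-early genes tested had a median of 0.07, the 13 heat shock genes -0.11 and the 19 genes of the unfolded protein response -0.01. Among the 16 targets of the oxidative stress factor NRF2, the median was 0.09 and the widest difference was that of NQO1, a quinone reductase. NQO1 read 7.11, 7.12 and 7.06 in GCN2 cells, against 5.86 and 7.02 (no drug), 6.20 and 6.73 (lomustine) and 5.45 (SA100) in PAR cells. All GCN2 arrays were higher, but untreated PAR B was within 0.1, and the difference was 0.92 (SE 0.30, adjusted p = 0.997).

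Among the structural and marker lists, the widest differences were of single genes. CDH2, N-cadherin, differed by -0.96 (SE 0.32), and the homeobox gene HOXD13 by -1.25 (SE 0.41), which was among 15 HOX genes with a median of 0.03. EPCAM, a marker of epithelium, read 3.50, 3.48 and 3.58 in GCN2 cells, against 2.78 and 2.66 (no drug), 2.99 and 2.94 (lomustine) and 3.01 (SA100) in PAR cells. The lines did not overlap and the difference was 0.62 (SE 0.13, adjusted p = 0.757). ESRP1, another epithelial gene, had a fitted difference of -0.56 (SE 0.18), but all 3 GCN2 arrays and 3 of the PAR arrays were under 2.42. Between plain means, with values under 2.42 set to it, the ESRP1 difference was only -0.11. The 12 epithelial markers had a median of 0.06. The medians of the markers of blood cells, fibroblasts and neurons were -0.01 (13 genes), 0.09 (6 genes) and -0.10 (10 genes).

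**Figure D5:**
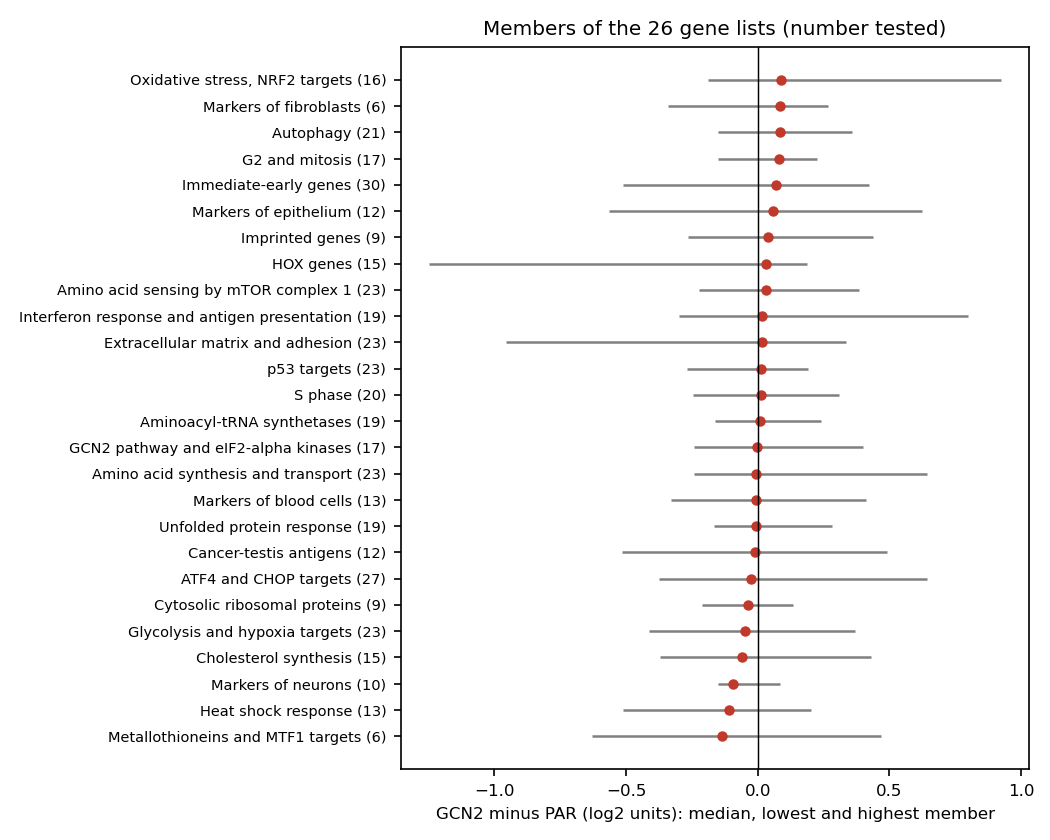
GCN2 minus PAR (x axis, log2 units) for the 26 gene lists, down the page with the number of members tested, where the point is the median and the line runs from the lowest to the highest member. All medians lay between -0.14 and 0.09, and the members farthest out on either side were HOXD13 at -1.25 and NQO1 at 0.92.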

How the data were processed

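Transcripts were measured on 24 Affymetrix arrays of 6 HAP1 lines. The authors deposited 1 table of log2 values for 53617 probe sets, made with RMA and the R package affy, per the submitters' processing notes. RMA corrects background, normalizes probes by quantiles and summarizes them by median polish, so array medians were alike (2.34 to 2.58). Versions, filters and a genome build are not given in the sources used here. Precision is limited by how many arrays there are, since arrays have no read depth.

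Probe sets were named through the platform's annotation. Of 25713 annotated, 23871 had 1 symbol, 1842 had several and were left out, and 27904 of the table had none. This gave 22395 genes, each represented by the probe set with the highest mean. Of these, 17526 had at least 2 of 24 arrays at or above the median of all values (2.42) and were tested, and 4869 were left out. Probe sets shared by near-identical genes, such as the HLA and TCEAL families, may read several of them.

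Tests used limma 3.58.1 in R 4.3.3, two-sided. P-values were adjusted by Benjamini-Hochberg over every gene tested, with 0.05 as the threshold. The fit of GCN2 against PAR had terms for arm and line over 8 arrays (4 residual degrees of freedom). Comparisons with the other lines used arm and line over 24 arrays, and those within arms 1 mean per group, where the spread comes from the duplicated groups and single arrays are taken to share it. The fit was tested on simulated data. Alternatives were other filters, probe set summaries, normalizations, priors and arrays.

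Named genes were EIF2AK4, its partners, sister kinases, EIF2S1, ATF4 and EGR1, then genes past the test whose GCN2 arrays lay beyond PAR in all arms, and the 2 members of each list with the smallest p. Other genes were named after their values were seen. Members and lists were chosen with earlier results of these data known. Gene order and start regions came from RefSeq (GRCh38.p14).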

Additional observations from a re-analysis of the deposited data

Results flagged for a closer look

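ZNF440, the gene that was lower in GCN2, had 1 PAR array apart from the others. The values were 3.02, 2.67 and 2.93 in GCN2 cells, against 4.36, 4.35, 3.90, 4.48 and 4.39 in PAR cells, and the low array was PAR lomustine A. Its gap to the next array was 0.775 of the range of the 5 arrays, above Dixon's 95% critical value of 0.71 for 5 samples. Chance gives such a gap in about 1 in 20 groups.

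A probe set without a gene symbol, 17100777, stood outside the comparisons of genes. In a fit over all 34619 probe sets that passed the filter, 2 were called, TCEAL9 and this one. It read 7.11, 7.0 and 6.77 in GCN2 cells (no drug, lomustine, SA100), against 5.11 and 5.04 (no drug), 4.97 and 5.09 (lomustine) and 4.97 (SA100) in PAR cells. The log2 difference was 1.95 (SE 0.12, limma adjusted p = 0.00993), and arrays of the other 4 lines ran from 3.40 to 5.73.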

How the results depend on the processing

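GCN2 against PAR gave 6 genes. Counts were 5 with no filter, 5 with a stricter filter and 4 from the mean of the arm contrasts. They were 2 with arrays centred on their medians, 12 in the fit over 24 arrays, 15 in that fit without the array labelled PKR SA100, and 2 over all probe sets. Leaving out 1 array gave 1 to 8, with the fewer arrays as the setting's own construction. Leaving out the no drug arm gave 1, the lomustine arm 2 and the SA100 arm 2. TCEAL9 passed under each alternative that tested it, with log2 differences of 4.51 to 4.90, and the stricter filter left it out. PXDN, HOOK1, GSTM3, MAN1A1 and ZNF440 kept their direction under all alternatives run but lost the call in 9, 10, 10, 12 and 14 of 20. The fit over all probe sets is not among these 20, and of the 6 genes it called TCEAL9. Against the other 4 lines, 27 genes became 15 with a stricter filter, 71 after a second quantile normalization, 45 without PKR, 14 without S51A and 78 without S51A lomustine B, and the cause was not tested. Unequal differences between arms gave 0 under each alternative run. The fit without PKR SA100, that over all probe sets, and the arm test without PAR lomustine A were chosen after seeing the data. No paired analysis was possible because the GCN2 arrays carry no repetition letter. Low signal limits every difference with arrays under 2.42, TCEAL9, PXDN, HOOK1, FASTKD2, CEP15, KBTBD7, PLAAT5 and ESRP1 among them.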
